A study of Arabidopsis thaliana with 13 samples.

Results

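The genes described here, 4 in number, encode proteases of plant cell death. Each was read by 1 probe set annotated to that gene alone, a condition of their choice, and was followed across all 13 profiles of the series. The 4 genes were chosen with earlier results of these data known, so counts over them are descriptions. They were AT4G04460, which encodes the aspartic protease PASPA3 (probe set 255345_at), and the vacuolar processing enzyme genes ALPHA-VPE (AT2G25940, 266849_at), BETA-VPE (AT1G62710, 262644_at) and GAMMA-VPE (AT4G32940, 253358_at). They are 4 of 13286 genes with such a probe set, and no filter on low signals was applied.

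Vacuolar processing enzymes are cysteine endopeptidases of the legumain family that cut after asparagine or aspartate and mature other vacuolar proteins. Some of them also carry the caspase-1-like activity linked to vacuolar collapse in dying plant cells. PASPA3 belongs to the aspartic proteases with a plant-specific insert, and its transcript is widely used as a marker of cells that prepare for developmental cell death, in xylem and root cap for example. Leaf senescence, which the NAC transcription factors ANAC092 (ORE1) and ANAC059 promote, ends in the death of leaf cells after nutrients have been withdrawn.

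The series asked which genes respond early to ANAC092 and ANAC059. All shoot samples came from 3-week-old Arabidopsis thaliana seedlings of the Col-0 background, grown on sucrose-containing MS medium and treated with 10 µM estradiol for 5 h. Seedlings with inducible ANAC092 overexpression gave 3 arrays, those with inducible ANAC059 overexpression gave 2, and empty vector seedlings served as the control with 3. Leaf 11 of 38-day-old plants grown in soil without estradiol was taken from Col-0 wild type, from a T-DNA insertion line of ANAC059 and from a T-DNA insertion line of ANAC092, with 1 array each. The number of independent lines behind each construct and the insertion alleles are not given in the sources used here.

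Signals are on the log2 scale, as the authors obtained them by RMA from 3 separate sets of Affymetrix arrays, and levels are compared only within a set. The ANAC092 set held 6 arrays, the ANAC059 set held 4 and the leaf set held 3. Over all probe sets, empty vector replicate 3 stood apart from the other controls, with an SD of the difference of 0.386 to replicate 1 and 0.351 to replicate 2, against 0.178 between those 2. By their titles, the empty vector arrays of the ANAC059 set are biological replicates 1 and 2 of the ANAC092 set normalized again, so both inductions share controls. The median signal of an array lay between 7.55 and 7.71 in the ANAC092 set, between 7.59 and 7.62 in the ANAC059 set, and between 5.73 and 5.83 for leaves. Of 6 leaf mesophyll markers only LHCB4.2, an antenna protein gene of photosystem II, had a probe set of its own. In the ANAC092 set it stood at 10.62, 10.54 and 10.15 on empty vector arrays and at 10.34, 9.75 and 10.09 on induced arrays, a change of -0.38 that did not pass (limma adjusted p = 0.492). It stood between 10.58 and 10.65 on the arrays of the ANAC059 set, where its change was 0.02 (limma adjusted p = 0.938). Within the leaf set it was at 13.28 in wild type, 13.28 in the ANAC059 line and 13.39 in the ANAC092 line. The wild type and ANAC059 line values were identical, and at 7.37% of all probe sets those 2 arrays alone were tied. Xylem markers had 0 of 6 and root markers 1 of 6, so the presence of those cells was not examined through defining markers. In whole shoots and whole leaves, fewer cells of a type and less RNA per cell cannot be told apart.

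After ANAC092 induction, PASPA3 and ALPHA-VPE rose strongly, while no call was made for BETA-VPE or GAMMA-VPE. PASPA3 was 31.5-fold higher and ALPHA-VPE 5.19-fold higher than in empty vector shoots. On the empty vector arrays PASPA3 lay above 18.0% to 24.9% of probe sets and ALPHA-VPE above 36.1% to 40.3%. Both folds thus start from low control signals. Limma called 2 of 4 genes higher at an adjusted p under 0.05, against 1.40% of all probe sets called higher in the same comparison. None of the 4 was called lower, a call made at 0.831% of all probe sets.

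PASPA3 had log2 signals of 6.22, 5.82 and 6.07 on empty vector arrays 1, 2 and 3, and of 10.99, 11.30 and 10.75 on ANAC092 induced arrays 1, 2 and 3. All induced arrays lay above all controls, as at 7.98% of probe sets, with a gap between the groups far wider than the range within either. The group means were 6.04 ± 0.20 (SD, n = 3) and 11.01 ± 0.27 (SD, n = 3). The change of 4.98 ± 0.17 (limma SE) had a 95% confidence interval of 4.59 to 5.37 and an adjusted p of 1.39e-05. It was the fifth highest change, and 0.0220% of probe sets changed by at least as much. Over 6 fits that each left out 1 array it ranged from 4.84 to 5.11 and passed in all 6, with adjusted p between 4.63e-05 and 0.000741.

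ALPHA-VPE, one of the VPE genes expressed in vegetative organs, had log2 signals of 6.83, 7.04 and 6.97 on empty vector arrays 1, 2 and 3. On ANAC092 induced arrays 1, 2 and 3 it reached 9.29, 9.82 and 8.86. The groups again did not overlap, and the induced arrays were more scattered than the controls. Means were 6.95 ± 0.11 (SD, n = 3) in empty vector shoots and 9.32 ± 0.48 (SD, n = 3) in induced shoots. The change of 2.37 ± 0.23 (limma SE) had an interval of 1.85 to 2.90, or 3.60-fold to 7.47-fold, and an adjusted p of 0.00201. At 0.185% of probe sets the change was at least as high.

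The induced arrays stood in the same order for both genes, with replicate 2 highest and replicate 3 lowest. Without induced replicate 2 the change of ALPHA-VPE was 2.13, and without replicate 3 it was 2.61; it passed in each of the 6 leave-one-out fits (limma adjusted p 0.00118 to 0.0203). Against empty vector replicate 3 alone the change of 2.35 was of similar size but missed the threshold (limma adjusted p = 0.0753); that fit assumes that the single control varies as much as the induced arrays. In that fit PASPA3 changed by 4.94 and passed (adjusted p = 0.0230).

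RNA quality was read from the actin control probe sets. Their log2 difference between the 3' and the 5' end, which grows with RNA degradation, stood at 0.76, 0.86 and 0.91 on empty vector arrays and at 1.01, 1.08 and 0.94 on ANAC092 induced arrays 1, 2 and 3. The same measure for GAPDH overlapped between the groups, at 0.073, 0.139 and 0.023 against 0.025, 0.163 and 0.077. In the ANAC059 set the actin difference was 0.78 and 0.88 on empty vector arrays and 1.01 and 1.06 on induced arrays 1 and 2, so it was higher after both inductions. On the leaf arrays the actin difference was 2.61 in wild type, 2.84 in the ANAC059 line and 2.55 in the ANAC092 line. For GAPDH it was 0.29, 0.21 and 0.37 in the same order. The part of RNA quality in the changes and in the leaf differences was not tested. Over all probe sets, the SD of the difference between ANAC092 induced replicates 1 and 3 was 0.129, against 0.364 and 0.343 for their differences to replicate 2. With replicates 1 and 3 averaged as 1 sample, PASPA3 changed by 5.05 (limma adjusted p = 7.94e-05) and ALPHA-VPE by 2.50 (limma adjusted p = 0.00384).

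BETA-VPE, best known for processing storage proteins in seeds, gave 8.03, 7.78 and 7.78 on empty vector arrays 1, 2 and 3 and 7.82, 7.77 and 7.77 on induced arrays 1, 2 and 3. The groups overlapped, since 2 of the 3 controls lay within the range of the induced arrays. The change was -0.08 ± 0.11 (limma SE), with an interval of -0.33 to 0.17 and an adjusted p of 0.835. That interval leaves room for levels between 0.796 and 1.13 times those of the controls.

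GAMMA-VPE, the main VPE gene of vegetative tissue and of virus-induced cell death, gave 10.28, 10.24 and 10.40 on empty vector arrays 1, 2 and 3. The induced arrays gave 10.07, 10.21 and 10.13. Every induced array lay below every control, by a margin between the nearest arrays that was smaller than the range within either group, and 12.4% of all probe sets were placed in this way. The change of -0.17 ± 0.10 (limma SE) did not pass, with an interval of -0.40 to 0.06 and an adjusted p of 0.564.

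**Figure D1:**
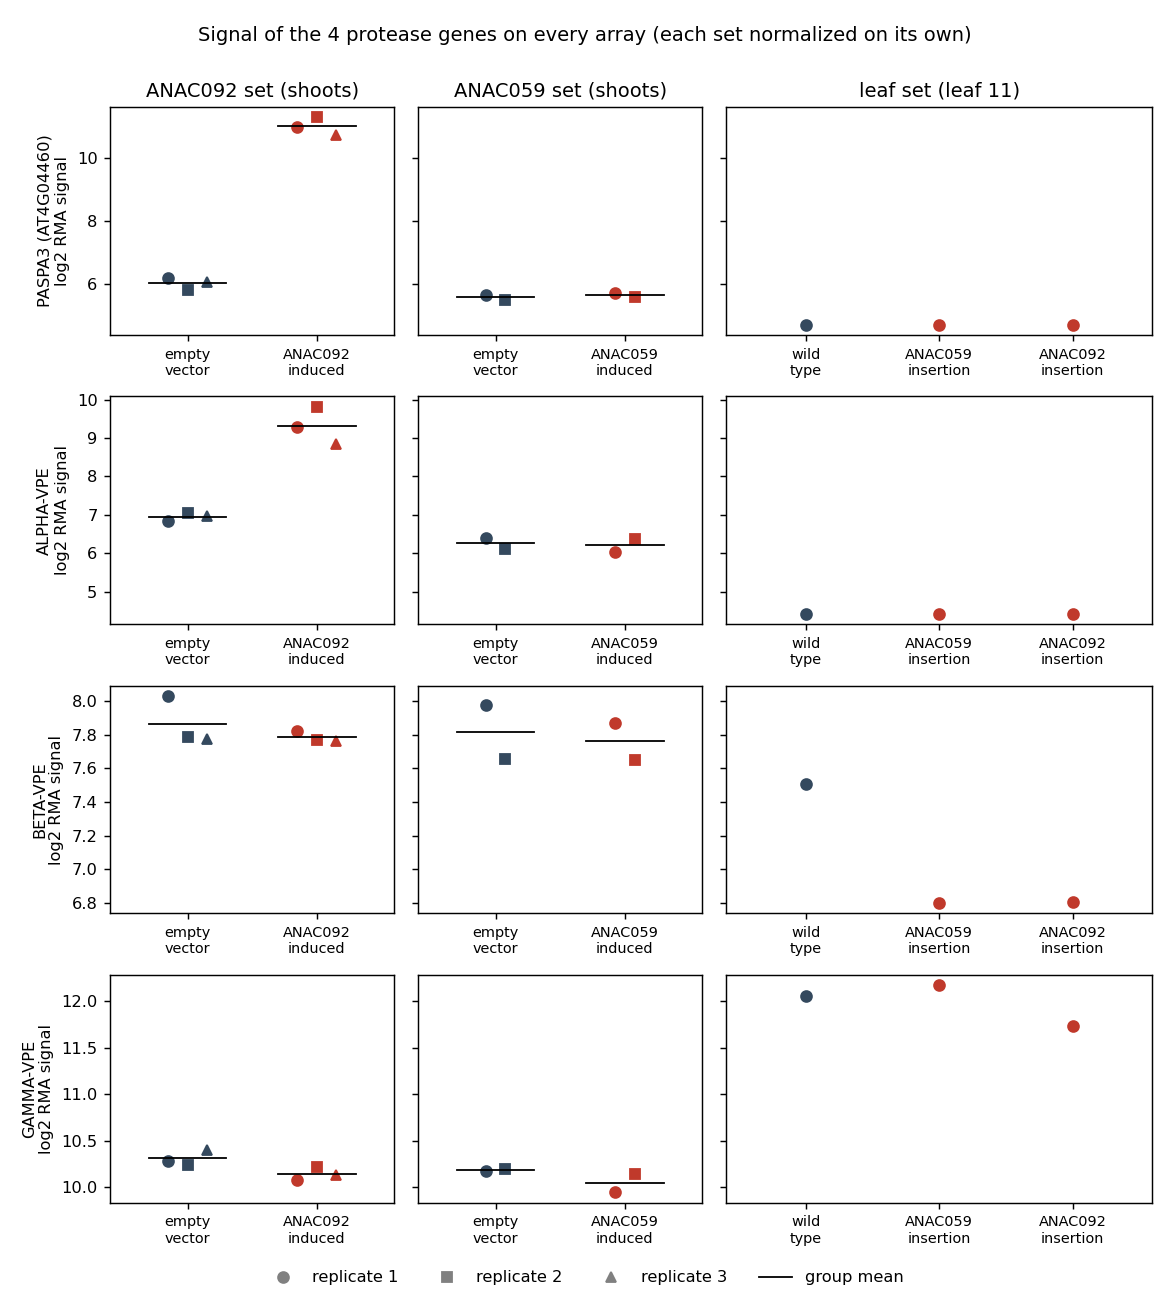
Log2 RMA signal of PASPA3, ALPHA-VPE, BETA-VPE and GAMMA-VPE (rows) on each array of the ANAC092, ANAC059 and leaf sets (columns), with 1 symbol per array and a line at the mean of groups with replicates; sets were normalized separately, so heights are compared only within a panel. PASPA3 stood at 10.75 to 11.30 and ALPHA-VPE at 8.86 to 9.82 on the ANAC092 induced arrays, above all empty vector arrays, while the other panels show no such gap except for BETA-VPE, where wild type leaf stood above both insertion lines.

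After ANAC059 induction none of the 4 genes passed the test. Limma called 0 of 4, against 2.99% of all probe sets called in either direction. At an unadjusted p under 0.05 limma had 0 of 4, against 20.4% of all probe sets. The levels of PASPA3 were 5.67 and 5.51 on empty vector arrays 1 and 2 and 5.72 and 5.60 on ANAC059 induced arrays 1 and 2. These values interleave, and the change of 0.07 ± 0.10 (limma SE, n = 2 per group) had an interval of -0.16 to 0.31 and an adjusted p of 0.710. The upper end of this interval is a level 1.24 times that of the controls.

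ALPHA-VPE gave 6.40 and 6.12 on empty vector arrays 1 and 2 and 6.03 and 6.37 on induced arrays 1 and 2. The groups overlapped and the change of -0.06 ± 0.15 (limma SE) had an interval of -0.41 to 0.30 (adjusted p = 0.860). BETA-VPE gave 7.98 and 7.66 on the controls and 7.87 and 7.65 on the induced arrays, again overlapping, with a change of -0.06 and an interval of -0.38 to 0.27 (limma adjusted p = 0.842). Replicate 1 was the higher array in both groups for this gene.

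GAMMA-VPE gave 10.18 and 10.20 on the controls and 9.94 and 10.14 on ANAC059 induced arrays 1 and 2. Both induced arrays lay below both controls, as did those of 26.8% of all probe sets, and the change of -0.15 (interval -0.38 to 0.09) did not pass (limma adjusted p = 0.445). Changes after both inductions are thus side by side 4.98 and 0.07 for PASPA3, 2.37 and -0.06 for ALPHA-VPE, -0.08 and -0.06 for BETA-VPE and -0.17 and -0.15 for GAMMA-VPE, ANAC092 first. The difference between the inductions was not tested, because the sets share control samples and were normalized separately.

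**Figure D2:**
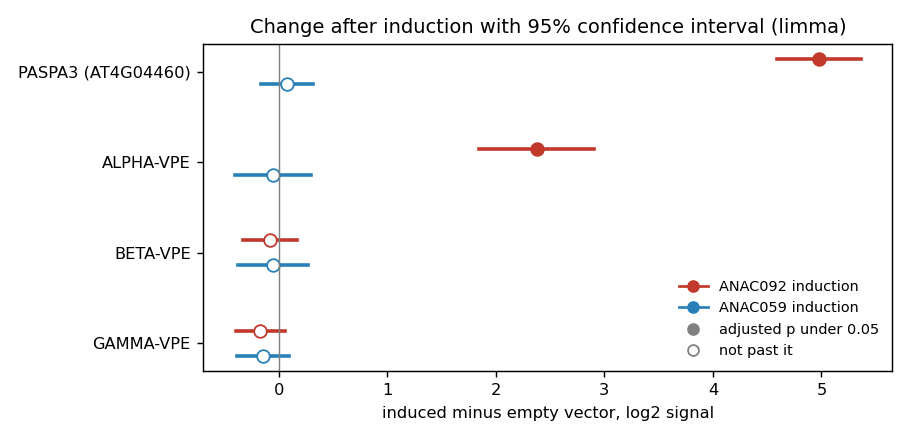
Change in log2 signal, induced minus empty vector, for the 4 genes (vertical axis) after ANAC092 induction (3 against 3 arrays) and ANAC059 induction (2 against 2 arrays); bars are 95% confidence intervals from limma, and filled points passed an adjusted p of 0.05. Only the ANAC092 intervals of PASPA3 (4.59 to 5.37) and ALPHA-VPE (1.85 to 2.90) lie away from 0.

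The second normalization of empty vector replicates 1 and 2 showed how far the set itself moves a level. Across all probe sets the same replicate differed between the ANAC092 and the ANAC059 set with an SD of 0.142, around medians of 0.04 and 0.04. PASPA3 stood 0.55 and 0.31 higher in the ANAC092 set for replicates 1 and 2. ALPHA-VPE stood 0.43 and 0.92 higher, and for replicate 2 only 0.0176% of probe sets shifted upward by as much. BETA-VPE moved by 0.05 and 0.13 and GAMMA-VPE by 0.11 and 0.04. The genes with the larger shifts were those that rose on the induced arrays normalized with these controls. Over the 318 probe sets called higher after ANAC092 induction, the median shift was 0.03 and 0.05, a value that does not speak for single genes. How this shift bears on the fold changes was not tested.

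In leaf 11, PASPA3 had a log2 signal of 4.73 in wild type, 4.73 in the ANAC059 insertion line and 4.73 in the ANAC092 insertion line. ALPHA-VPE had 4.42, 4.42 and 4.42. These values were identical to the last deposited digit, as were the 3 values of 14.7% of all probe sets. On the wild type array, 50 other probe sets shared the exact value of PASPA3 and 95 others shared that of ALPHA-VPE. In all, 47.2% of probe sets on that array had the same value as another probe set, against 4.81% on empty vector replicate 1 of the ANAC092 set. Both values lay below the array median of 5.73, and they set no order of the genotypes.

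BETA-VPE was at 7.51 in wild type leaf, at 6.80 in the ANAC059 line and at 6.80 in the ANAC092 line. The differences to wild type were -0.71 and -0.70, or 0.612 and 0.615 times the wild type signal. Of all probe sets, 1.69% were at least as low in the ANAC059 line and 2.30% in the ANAC092 line. Both differences rest on the same single wild type array, and without replicates no test was possible. GAMMA-VPE was bright in every leaf, at 12.06 in wild type, 12.17 in the ANAC059 line and 11.73 in the ANAC092 line, with differences of 0.12 and -0.32. A difference at least as large in size as the latter occurred at 17.5% of probe sets. None of the 4 genes differed from wild type by 1 or more on the log2 scale, as 5.26% of all probe sets did in the ANAC059 line and 1.80% in the ANAC092 line. For PASPA3 and ALPHA-VPE, whose leaf values were identical on all arrays, this does not show that they were unchanged.

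Other genes of the same pathways were read from 6 lists of 75 genes, and 36 of these genes were measured by a probe set of their own. The lists were assembled with earlier results of these data known, so their counts are descriptions. Of the 8 genes in the developmental cell death list 4 were measured. All 4 rose after ANAC092 induction with a median change of 4.54, against a median of -0.03 over all probe sets. Limma called all 4 higher, against 1.40% of all probe sets. Beside PASPA3 these were AT4G18425 (4.98 ± 0.13 limma SE, adjusted p = 5.97e-06), AT2G14095 (4.10 ± 0.28, adjusted p = 0.000412) and scpl48, a serine carboxypeptidase-like gene (3.69 ± 0.12, adjusted p = 1.31e-05). All passed whichever of the 6 arrays was left out.

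AT4G18425 moved from 6.15, 5.96 and 5.88 on the empty vector arrays to 11.07, 11.08 and 10.79 on the induced arrays. AT2G14095 moved from 6.55, 6.66 and 6.26 to 10.67, 11.13 and 9.97, and scpl48 from 9.15, 9.04 and 9.37 to 12.97, 12.89 and 12.77. No induced array came within reach of a control for any of the 3. In leaf 11, AT4G18425 and AT2G14095 differed from wild type by 0.07 or less in both insertion lines. Their levels there, between 4.15 and 4.34, lay below the lowest leaf array median of 5.73. AT2G14095 had the same value in wild type and the ANAC059 line, and AT4G18425 in both insertion lines. These small differences therefore do not show that the 2 genes were unchanged. The gene scpl48 differed by 0.25 in the ANAC059 line and -0.38 in the ANAC092 line.

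After ANAC059 induction scpl48 was the 1 gene of the 4 measured on that list that limma called higher, against 1.65% of all probe sets. It stood at 9.21 and 9.09 on the controls and at 10.09 and 10.31 on the induced arrays, a change of 1.05 (limma adjusted p = 0.00745). The actin difference was higher on the induced arrays of both inductions, and its part in this change was not tested. The call of scpl48 held whichever of the 4 arrays was left out (limma adjusted p 0.00704 to 0.0416). AT4G18425 was at 0.31, PASPA3 at 0.07 and AT2G14095 at -0.02, without passing. With the replicate number as a block, scpl48 missed the threshold (limma adjusted p = 0.0829), in a fit with 1 residual degree of freedom that called 0 probe sets.

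In the VPE family list all 4 genes were measured. ALPHA-VPE alone was called higher after ANAC092 induction, a call made at 1.40% of all probe sets. DELTA-VPE, known from the seed coat, was at 5.98, 5.87 and 5.93 on the empty vector arrays and at 5.81, 5.82 and 5.90 on the induced arrays. Its change of -0.08 did not pass (limma adjusted p = 0.793), and neither did that of -0.16 after ANAC059 induction (adjusted p = 0.432). DELTA-VPE was also the 1 measured gene of 6 seed markers.

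Of 14 aspartic protease genes 7 were measured. After ANAC092 induction limma called 2 of the 7 higher, PASPA3 and AT5G10770, against 1.40% of all probe sets. At an unadjusted p under 0.05 limma had 3 of the 7, against 12.0% of all probe sets. AT5G10770 went from 7.62, 7.56 and 7.47 to 8.53, 8.32 and 8.68, a change of 0.96 ± 0.12 (limma SE, adjusted p = 0.00770). Its call was lost when empty vector replicate 2 was left out (limma adjusted p = 0.0515) and against empty vector replicate 3 alone (0.0733). APA1, encoding a typical vacuolar aspartic protease, was at 0.40 (limma adjusted p = 0.194) and passed without empty vector replicate 3 (0.51, adjusted p = 0.0290). AT1G62290, UND and AT2G28030 were at 0.06, 0.03 and 0.02 without passing. The list's median was 0.06. After ANAC059 induction limma called 0 of the 7, against 2.99% of all probe sets. It had 1 at an unadjusted p under 0.05, against 20.4% of all probe sets.

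The papain-like cysteine proteases include many enzymes that VPEs are thought to help mature. Of 29 listed genes 16 were measured, and limma called 0 of 16 after ANAC092 induction, against 2.23% of all probe sets. None of the 16 genes had an unadjusted p under 0.05 in limma, against 12.0% of all probe sets. Their median change was -0.01, and values of AT2G21430, AT1G29090, AT3G45310, AT1G02300, AT1G29080 and AT3G19390 were 0.26, 0.23, -0.21, -0.21, -0.20 and -0.18. After ANAC059 induction limma called 0 of 16 as well, against 2.99% of all probe sets. It had 3 at an unadjusted p under 0.05, near the 20.4% of all probe sets there, and the median was -0.16. Metacaspases, another group of cell death proteases, had 0 of 9 genes with a probe set named for them alone.

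Among protease inhibitors and cell death regulators 6 of 14 genes were measured. Limma called 0 of 6 after ANAC092 induction, against 2.23% of all probe sets. It had 2 at an unadjusted p under 0.05, against 12.0% of all probe sets. The list's median was 0.42, against -0.03 over all probe sets. Limma also called 0 of 6 after ANAC059 induction, against 2.99% of all probe sets. It had 0 there at an unadjusted p under 0.05, against 20.4% of all probe sets. After ANAC092 induction AT5G47550 was at 0.53, AT5G05110 at 0.50, AT1G17860 at 0.49, the phytocystatin gene CYS1 at 0.35, AT1G72290 at 0.12 and SERPIN1, whose product inhibits cysteine proteases, at -0.11. AT5G05110 passed without ANAC092 induced replicate 2 (0.60, limma adjusted p = 0.0487). Against empty vector replicate 3 alone, 3 of the 6 passed: CYS1 at 1.05, AT5G47550 at 1.41 and AT1G17860 at 0.80. In that fit 2.87% of all probe sets were called higher.

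**Figure D3:**
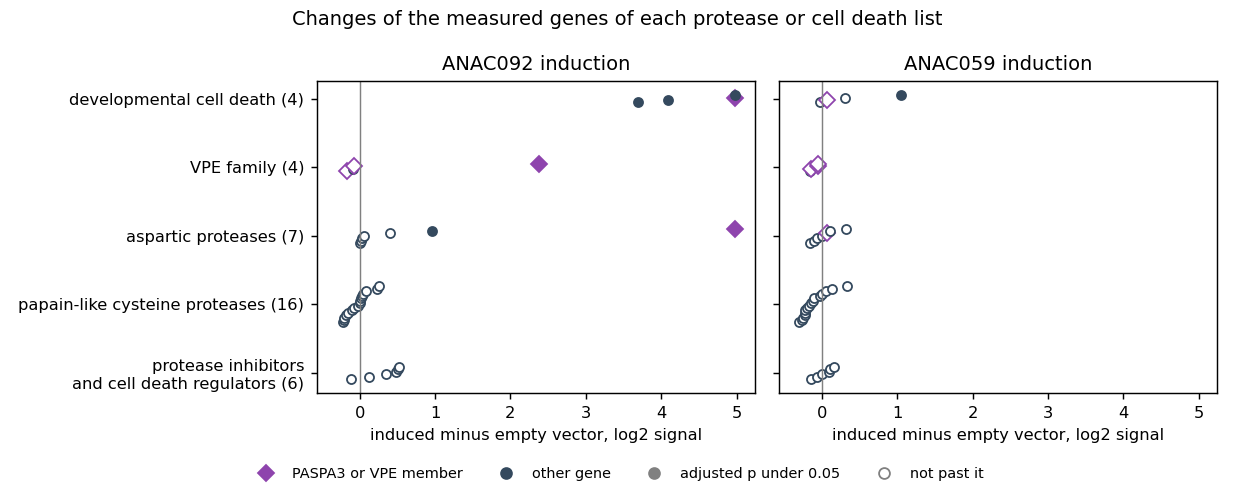
Change in log2 signal, induced minus empty vector, for each measured gene of 5 lists (rows, number measured in brackets; no metacaspase was measured) after ANAC092 and ANAC059 induction; diamonds are PASPA3 and the VPE genes, filled symbols passed an adjusted p of 0.05 in limma. All 4 developmental cell death genes stand between 3.69 and 4.98 after ANAC092 induction, and the papain-like proteases lie around 0.

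Likeness of pattern was measured as Pearson's r over the 6 arrays of the ANAC092 set, against 13512 other probe sets of 1 gene. Since these arrays form 2 groups, a high r mainly reflects a clean step between them and says little about its size. By a rule that took the 5 highest, the nearest genes to PASPA3 were AT2G19130 (r = 0.999), AT4G18425 (0.999), AT1G73750 (0.998), AT1G02660 (0.998) and AT5G39520 (0.998). Their changes were 0.27, 4.98, 2.62, 2.40 and 4.20, of which AT2G19130 did not pass (limma adjusted p = 0.242). In all, 152 genes reached an r of 0.95 with PASPA3, and 123 of them were called higher after ANAC092 induction, against 1.40% of all probe sets. Choosing genes by their likeness to a risen gene on the same arrays favours such calls, so this count is a description. ALPHA-VPE had an r of 0.981 with PASPA3 and ranked 64th.

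The nearest genes to ALPHA-VPE were AT4G30630 (r = 0.997), AT3G10320 (0.996), AT3G61550 (0.996), AT4G34320 (0.995) and AT2G16890 (0.995). Their changes were 0.31, 0.86, 0.44, 2.99 and 1.03, and AT4G30630 (limma adjusted p = 0.201) and AT3G61550 (0.0593) did not pass. In all 5, as in ALPHA-VPE, induced replicate 2 was the highest array and induced replicate 3 the lowest of the induced ones. Choosing genes by r over these same arrays favours such a shared order. BETA-VPE was most like AT5G44970 (r = 0.989), AT1G35030 (0.986) and AT1G61840 (0.986), and GAMMA-VPE was most like AT1G34200 (0.985), AT2G25780 (0.980) and AT5G39580 (0.978). None of these 6 passed the test after ANAC092 induction, and their adjusted p in limma ranged from 0.186 to 0.880.

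**Figure D4:**
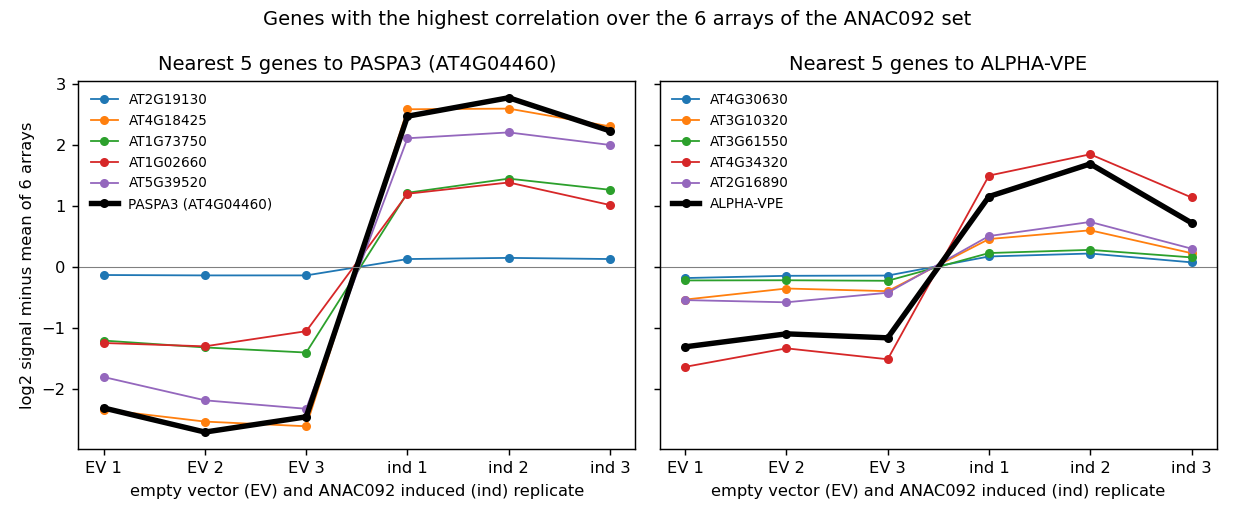
Log2 signal minus the gene's mean over the 6 arrays of the ANAC092 set for PASPA3 (left, black), ALPHA-VPE (right, black) and the 5 genes with the highest correlation to each (colours); lines join the values of 1 gene, and replicates have no order. AT4G18425 follows PASPA3 in size as well as shape, whereas AT2G19130 shows the same step at a change of 0.27.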

How the data were processed

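The authors deposited log2 probe set signals obtained with RMA, a method that corrects background, quantile-normalizes and summarises probes, per the submitters' processing notes. Per the labels, 3 groups of arrays went through RMA separately; version and settings were not given in the sources used here. Of 22810 probe sets 64 controls were left out. Names came from the platform annotation, where 13513 probe sets had 1 gene, 503 several and 8730 none. Loci came from the TAIR10.1 gene table, used for names only. A probe set without a name may hold a gene called not measured. ANAC092 and ANAC059 lacked a named probe set, so the induced and disrupted genes were not checked. Detection calls were not used, and the number of arrays limits the precision.

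Groups follow the sample titles, which call the arrays biological replicates. Each induction set was fitted alone (limma 3.58.1, R 4.3.3, two-sided, no covariates), and the fit was tested on simulated data. P-values were adjusted by Benjamini-Hochberg across 22746 probe sets and called under 0.05. Leaf differences were called from 1 on the log2 scale, without a test.

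The 4 genes and the lists were chosen with earlier results of these data known. The text names these genes, up to 6 members of each list (those past the threshold first, then by size) and the genes most correlated with each over 6 arrays. Alternatives were other scalings, a filter on dim probe sets, an intensity trend, the replicate block, each array left out, ANAC092 induced replicates 1 and 3 averaged, empty vector replicate 3 as sole control and, for leaves, a difference of 0.5.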

Additional observations from a re-analysis of the deposited data

How the results depend on the processing

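After ANAC092 induction PASPA3 passed under all 13 alternatives, and ALPHA-VPE under 12 of 13. The filter on dim probe sets is no separate support among these, as it used the mean over all 6 arrays. The empty vector means of PASPA3 (6.04) and ALPHA-VPE (6.95) lay below the lowest array median of 7.55. Both genes thus stayed in only through the induced arrays. Against empty vector replicate 3 alone, 1 of the 4 genes was called, ALPHA-VPE changed by 2.35 (limma adjusted p = 0.0753) and BETA-VPE by 0.0084; the lone control leaves fewer samples. BETA-VPE ranged from -0.12 to 0.0051 without single arrays. The number of called probe sets was 507, was 242 with ANAC092 induced replicates 1 and 3 averaged, and ranged from 209 (without empty vector replicate 2) to 787 (without empty vector replicate 3). After ANAC059 induction none of the 4 genes passed under any alternative. ALPHA-VPE was at 0.034 with quantile normalization, and without single arrays PASPA3 ranged from -0.0053 to 0.15, ALPHA-VPE from -0.22 to 0.11 and BETA-VPE from -0.22 to 0.10. Called probe sets numbered 679, and 161 to 444 without single arrays. With the replicate block, limma called 553 probe sets in the ANAC092 set and 0 in the ANAC059 set, where 4131 had an unadjusted p under 0.05 and 1 residual degree of freedom was left; it changed no call of the 4 genes. Deviations of same-numbered arrays from their group means correlated at -0.11, 0.27 and 0.10 in the ANAC092 set, so the numbers were not taken to pair the samples, and not every array correlated best with its own number. In the leaf set, calling differences from 0.5 on the log2 scale made 1 gene of 4, BETA-VPE, lower in the ANAC059 line (-0.71) and in the ANAC092 line (-0.70), where 4.67% and 4.76% of all probe sets are lower by at least 0.5. In the ANAC059 set the filter on dim probe sets removed PASPA3 and ALPHA-VPE, so it gave no value for them.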

Other observations

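On empty vector replicate 3, which stood apart from the other controls over all probe sets, 4 of 6 measured protease inhibitor genes had their lowest value among the 6 arrays of the ANAC092 set, as did 18.1% of all probe sets. CYS1, encoding a phytocystatin that inhibits papain-like proteases, stood at 11.35, 11.17 and 10.20 on empty vector arrays 1, 2 and 3 and at 11.30, 11.27 and 11.21 on ANAC092 induced arrays 1, 2 and 3. Replicate 3 lay below all others, and replicates 1 and 2 were within the range of the induced arrays or close to it. AT5G47550 showed the same layout, with 9.90, 9.77 and 8.51 on the controls and 9.94, 9.88 and 9.94 on the induced arrays. AT1G17860 stood at 10.26, 10.12 and 9.73 on the controls and at 10.54, 10.54 and 10.49 on the induced arrays. With replicate 3 as the only control these genes changed by 1.05, 1.41 and 0.80. Their changes were 0.35, 0.53 and 0.49 with all controls (limma adjusted p 0.681, 0.603 and 0.206). Without replicate 3 they were -0.0037, 0.084 and 0.33 in the same order. In the fit with replicate 3 alone 698 of 22746 probe sets were called, and 653 of them were higher. AT1G72290 was also lowest on replicate 3, at 5.53 against 5.61 on the next array, whereas SERPIN1 and AT5G05110 were not, with 10.94 and 9.30 there. The genes with per-array values were singled out after their values were seen.

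In leaf 11 of the ANAC059 insertion line, 2 of 16 measured papain-like protease genes were higher than wild type by at least 1 on the log2 scale, as were 4.65% of all probe sets. They were AT3G19400, at 7.45 against 6.32, and AT4G01610, at 10.85 against 9.85. The difference of AT4G01610, 1.00, only just reached the cut. The array median was 5.83 in this line and 5.73 in wild type, and the count under other scalings was not examined. In the ANAC092 insertion line these genes stood at 6.32 and 9.55, and 0 of 16 were higher by that much. The value of AT3G19400 was identical in wild type and the ANAC092 line. At 12.5% of all probe sets those 2 arrays alone were tied in this way, so the tie does not show an unchanged level. Both were named after their values were seen, and single arrays allow no test.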
